A study of Homo sapiens with 6 samples.

Results

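The genes described here are 53 genes of lymphoid and myeloid surface proteins and effector proteins, among 19817 protein-coding genes. The members are 27 genes of T and natural killer (NK) cells, 5 of B cells, 16 of myeloid cells and 5 that are shared by leukocytes or lie at the IL27 locus. They were chosen by name with the gene-end peaks and folds of these same tables already known, so their counts and values are descriptions and no test was made on them. The study mapped acetylated NEIL1 (AcNEIL1) on chromatin by ChIP-seq in HCT116, an established human colorectal carcinoma line, in 3 ChIP libraries, each with an input library of the same number. The ChIP samples were formaldehyde-crosslinked chromatin of exponentially growing cells, precipitated with a custom-made rabbit antibody against AcNEIL1, and the inputs were sheared chromatin taken before precipitation. No second condition, no treatment and no leukocyte was part of the design. Nothing in the labels ties the 3 replicates to different cultures, and the SDs below may therefore measure technical spread alone. The tables hold peaks and no expression, so the line's identity was not checked against marker levels, and a peak says nothing here of whether its gene was transcribed.

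NEIL1 is a DNA glycosylase that starts base excision repair by removing oxidised bases from DNA, and acetylation is a modification of its lysines. The listed genes encode the machinery of leukocytes. Cytotoxic T and NK cells kill with perforin, granulysin and granzymes, T and B cells recognise antigen through receptors coupled to CD3 and CD79 chains, and neutrophils carry granules of myeloperoxidase and serine proteases. Most of these genes are known as silent in epithelial cells.

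A gene's window was its RefSeq body in GRCh38.p14 extended by 5 kb on either side. It was split into ends (within 1 kb of either end of the gene), the rest of the body, and the rest of the flanks. A peak counted at a gene end when at least 1 bp of it lay within that end. The fold is the authors' value per peak, the pileup at the summit over the local background with 1 added to each, and since fold scales differ between lists its rank percentile within the own list is also given. The 3 lists held 39789, 60075 and 49609 peaks on chromosomes 1 to 22 and X, from 31921768, 28814429 and 35222701 ChIP tags, and the median fold of all their peaks was 3.42, 3.40 and 3.61. Replicate 2 had the fewest tags and the most and widest peaks. Exon and intron positions were not used here.

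A gene-end peak was present in all 3 replicates at 20 of the 53 members (37.7%), and the background was 9.03% of all protein-coding genes (1790 genes). By replicate, 22, 29 and 28 members had a gene-end peak (background 14%, 20.1% and 15.6%), or 49.7% ± 7.14 (SD, n = 3), against 16.6% ± 3.18 of all genes. A further 20 members without a gene-end peak in any replicate were 37.7% of the list, against a background of 74.5%. A peak anywhere in the window was present in all 3 replicates at 30 members (56.6%, background 28.3%), and by replicate at 31, 35 and 33 members (background 36.2%, 42.8% and 38.5%). No replicate had a peak in the window of 16 members (30.2%, background 49.1%). The list held many genes with peaks in every library and many with none in any. At 18 of the 20 members with gene-end peaks in all replicates (34.0% of the 53, background 7.63%), these peaks overlapped each other; CTSW and CD5 were the exceptions. With the summit itself required at the end, the call in all 3 replicates was lost for APOBR, PDCD1, CD79A, MPO, CD27, CD5, LAG3 and CD4. With ends of 500 bp it was lost for CD27, CD5, LAG3, PRTN3, CTSW and CD4.

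Among T and NK members, 11 of 27 (40.7%, background 9.03%) had a gene-end peak in all 3 replicates. Another 11 (40.7%, background 49.1%) had no peak in the window in any replicate. The 5 B members had such gene-end peaks at 3 genes (60%), and 1 B gene had no peak. Of the 16 myeloid members, 4 (25%) had gene-end peaks in all 3 replicates and 3 (18.75%) had no peak. By replicate the T and NK counts were 11, 15 and 15, the B counts 3, 4 and 3, and the myeloid counts 6, 6 and 7. The T and NK share was thus 40.7%, 55.6% and 55.6%, a mean of 50.6% ± 8.55 (SD, n = 3). The myeloid share was 37.5%, 37.5% and 43.8%, a mean of 39.6% ± 3.61 (SD, n = 3). At gene ends T and NK genes were above myeloid genes in each replicate, but the ranges over replicates overlapped, with replicate 1 of the former below replicate 3 of the latter. With peaks of −log10 q of at least 5 alone, 5 of 27 T and NK and 3 of 16 myeloid genes had gene-end peaks in all replicates, and that order was lost. For any peak in the window the shares were 51.9%, 59.3% and 59.3% of T and NK genes and 56.25%, 68.75% and 56.25% of myeloid genes. By that measure T and NK genes were below myeloid genes in replicates 1 and 2 and above them in replicate 3. The gene-end share of B genes, 60%, 80% and 60%, and that of the shared or other genes, 40%, 80% and 60%, rest on 5 genes each. The counts were also made without 6 members whose folds were among those known from the start (GNLY, PDCD1, IL27, APOBR, CD79A and PRF1). Of the other 47 members, 14 (29.8%) had gene-end peaks in all 3 replicates, with 8 of 24 T and NK, 2 of 4 B and 4 of 16 myeloid genes. The other 47 were also chosen with results of these tables known, so these counts are not free of that choice.

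**Figure D1:**
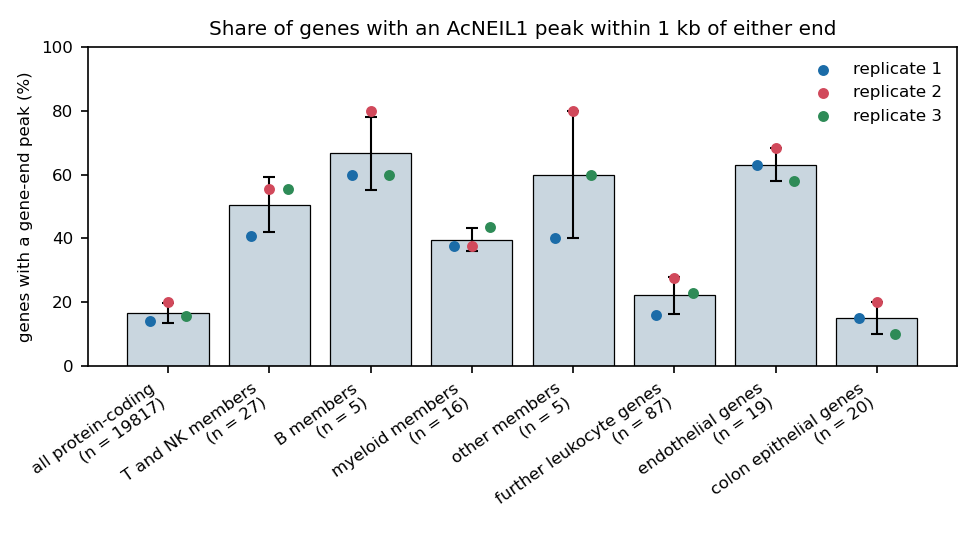
Share of genes (y axis, percent) with an AcNEIL1 peak within 1 kb of either gene end. Bars show all protein-coding genes, the members by class, further leukocyte genes and the comparison lists. Their heights are means of the 3 replicates, error bars SD and points single replicates. The bar of the T and NK members stands at 50.6% and that of all protein-coding genes at 16.6%.

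The peaks also reached the promoters of some of the genes. Promoter sequences from RefSeq (GRCh38.p14) were matched for 31 of the 53 members. Within the 300 bases from 250 before to 50 after the start, a peak was present in all 3 replicates at 4 of these 31 (12.9%, background 1.69%): GNLY, PDCD1, CD79A and LCK. Their 250 upstream bases are shown because they are the member promoters touched, in whole or in part, by a peak in every library. Those of CTLA4 and GZMB follow, T cell genes of the same roles with no peak within 5 kb in any library. Capitals mark the RUNX core TGTGGT and GAGGAA, a longer form of the ETS core GGAA, on either strand (ACCACA and TTCCTC on the other). These are letters bound by 2 transcription factor families that act in blood cells. Both strands were searched and overlapping matches were each counted. GGAA outside GAGGAA was not counted, so a promoter without GAGGAA can still hold it. The sequences run 5′ to 3′ on the strand of the gene.
GNLY: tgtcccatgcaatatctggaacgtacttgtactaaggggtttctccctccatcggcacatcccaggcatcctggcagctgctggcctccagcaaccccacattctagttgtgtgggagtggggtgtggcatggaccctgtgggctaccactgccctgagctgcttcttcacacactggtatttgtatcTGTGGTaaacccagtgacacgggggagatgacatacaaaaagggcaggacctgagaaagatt
PDCD1: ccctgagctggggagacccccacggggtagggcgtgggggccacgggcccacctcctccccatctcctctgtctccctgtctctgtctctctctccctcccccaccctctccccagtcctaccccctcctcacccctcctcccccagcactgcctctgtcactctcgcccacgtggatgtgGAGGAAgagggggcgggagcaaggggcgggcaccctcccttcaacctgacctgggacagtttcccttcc
CD79A: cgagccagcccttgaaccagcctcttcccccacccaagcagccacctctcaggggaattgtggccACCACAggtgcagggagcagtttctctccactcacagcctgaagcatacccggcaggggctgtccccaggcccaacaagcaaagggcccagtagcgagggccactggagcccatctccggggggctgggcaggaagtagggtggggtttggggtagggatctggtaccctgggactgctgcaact
LCK: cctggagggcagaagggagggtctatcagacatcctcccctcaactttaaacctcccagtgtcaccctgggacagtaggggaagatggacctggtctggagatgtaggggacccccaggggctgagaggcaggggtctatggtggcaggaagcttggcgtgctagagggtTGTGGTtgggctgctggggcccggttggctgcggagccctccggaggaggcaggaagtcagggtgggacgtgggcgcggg
CTLA4: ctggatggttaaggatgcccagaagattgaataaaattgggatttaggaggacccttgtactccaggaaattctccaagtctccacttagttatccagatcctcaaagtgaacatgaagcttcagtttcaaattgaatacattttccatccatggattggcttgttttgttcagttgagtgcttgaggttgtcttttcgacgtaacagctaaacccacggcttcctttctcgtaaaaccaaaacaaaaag
GZMB: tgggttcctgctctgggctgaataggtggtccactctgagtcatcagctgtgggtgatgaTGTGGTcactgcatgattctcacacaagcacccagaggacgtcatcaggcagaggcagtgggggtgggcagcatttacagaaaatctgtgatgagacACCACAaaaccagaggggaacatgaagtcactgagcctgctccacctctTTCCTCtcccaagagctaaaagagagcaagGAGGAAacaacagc
The windows lie at chr2:85694108-85694357 (+, GNLY), chr2:241858895-241859144 (-, PDCD1), chr19:41877029-41877278 (+, CD79A), chr1:32251015-32251264 (+, LCK), chr2:203867521-203867770 (+, CTLA4) and chr14:24634191-24634440 (-, GZMB). GNLY, CD79A and LCK hold 1 RUNX core each, PDCD1 holds 1 GAGGAA, CTLA4 holds neither of these and GZMB, which had no peak, holds 2 of each. Over the whole 300 bases, 13 of 31 member promoters (41.9%) held the RUNX core against 11.0% of all promoters, and 17 (54.8%) held GAGGAA against 27.7%. Among all promoters with a peak in all 3 replicates these shares were 10.9% and 30.3%, close to those of all promoters. Members' promoters were also poorer in GC, with a median of 53.3% against 62.7%, and had a median of 5 CpG against 22. A match is a description of letters and was not tested for its part in the peaks.

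Of the cytotoxic granule genes, 4 of 9 had gene-end peaks in all 3 replicates. GNLY, which encodes granulysin, a pore-forming protein of cytotoxic granules, lies at chr2:85694358-85698852. The folds of its strongest gene-end peak were 5.51, 6.76 and 6.53 in replicates 1, 2 and 3, or 6.26 ± 0.67 (SD, n = 3), with a mean rank percentile of 99.3. Replicate 1 was the lowest, and all 3 values lay near the top of their lists. With the summit required at the end, the mean gene-end fold was 4.74. Peaks covered 33.2%, 36.8% and 31.0% of its window. Those at the gene merged into the region chr2:85693371-85698872, which runs from before its start to just past its end. Beyond it, replicate 2 had a peak at chr2:85699070-85699565, and replicates 1 and 3 shared the region chr2:85702999-85704331, with folds of 5.52 and 3.44.

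PRF1 encodes perforin, the protein that forms pores in target cell membranes. Its folds were 5.22, 4.51 and 5.85, or 5.20 ± 0.67 (SD, n = 3, mean percentile 95.4). The strongest gene-end peak lay at the stop in replicates 1 and 3 and at the start in replicate 2. The start region had folds of 2.74, 4.51 and 4.02. With ends of 500 bp, or with the summit required at the end, the mean gene-end fold was 3.755. Start and stop both had a peak in every replicate, and 4 separate regions were shared by all 3: 1 at each end, 1 in the body and 1 in the flank. The peaks nearest the start had summits 390, 30 and 8 bp after it in replicates 1, 2 and 3, so all of them lay at the beginning of the gene.

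NKG7, a membrane protein of cytotoxic granules, had folds of 4.84, 3.94 and 5.57, or 4.78 ± 0.82 (SD, n = 3, mean percentile 89.8). The gene is short, and 1 shared region, chr19:51369018-51374203, covered all of it. In at least 1 replicate its peak also touched the end of CLDND2. CTSW, the cathepsin W of cytotoxic lymphocytes, had gene-end folds of 4.60, 2.82 and 3.61, or 3.68 ± 0.89 (SD, n = 3, mean percentile 53.4), and its gene-end peaks in the 3 replicates did not all overlap. GZMM had gene-end peaks in replicates 2 and 3 only. The granzymes GZMA, GZMB, GZMH and GZMK, the proteases that perforin delivers, had no peak within 5 kb in any replicate.

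**Figure D2:**
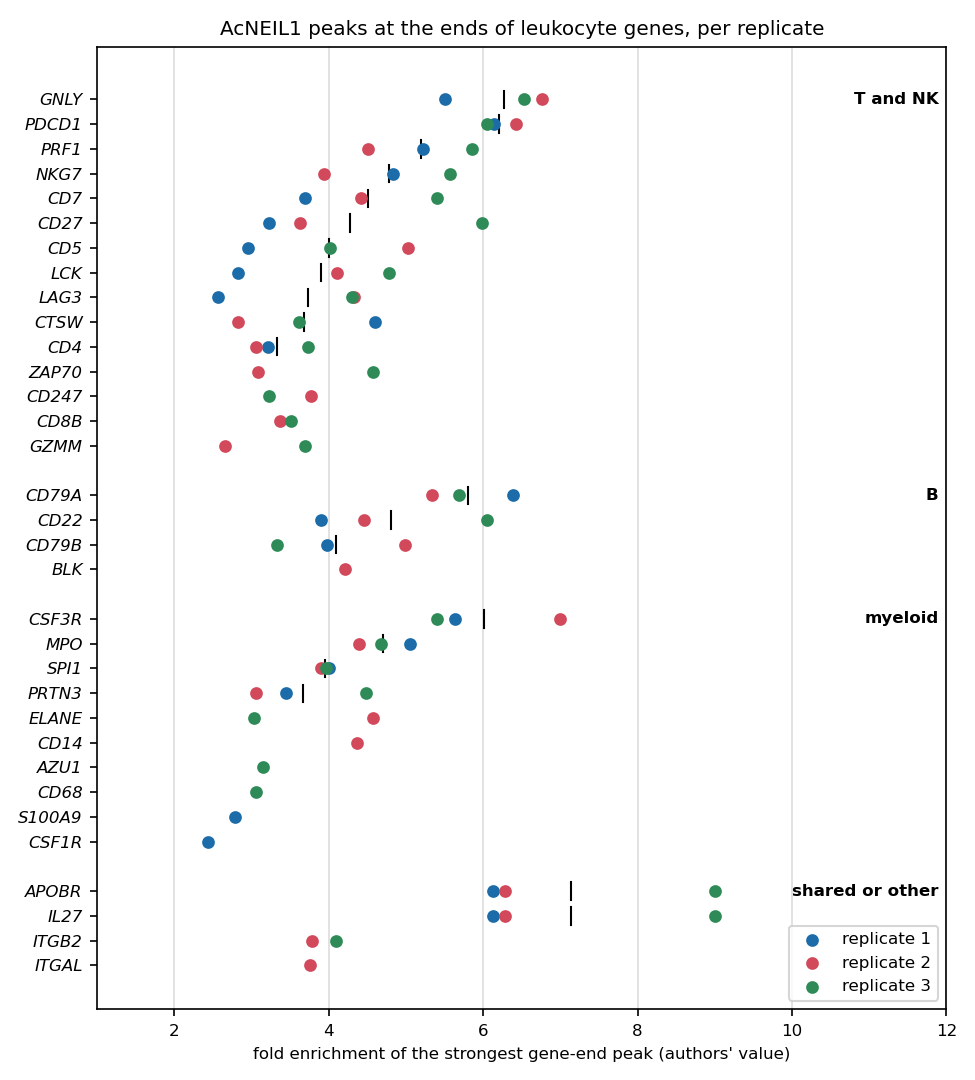
Fold of the strongest gene-end peak (x axis, the authors' value per peak) for the 33 members that had a peak at an end in 1 or more replicates, by class; points are replicates and the black tick is the mean where all 3 had a peak. GNLY and PDCD1 stand above a fold of 5 in every replicate, while LAG3, CD5 and LCK spread from below 3 to above 4.

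Of the inhibitory receptors, 2 of 4 had gene-end peaks in all replicates. PDCD1 encodes PD-1, the receptor that restrains activated T cells, and lies at chr2:241849884-241858894. Its folds were 6.14, 6.43 and 6.05, or 6.21 ± 0.20 (SD, n = 3, mean percentile 99.3), and so were nearly equal in the 3 replicates. The summits of these peaks were spread over 8047 bp, near the start in replicates 1 and 3 and toward the stop in replicate 2. Peaks covered 65.0%, 77.6% and 65.2% of its window, the highest mean cover among the 53 members (69.2%). They merged into 1 region of 12842 bp, chr2:241848441-241861282, which holds the whole gene. In replicate 2 a single peak of 12134 bp made up most of it, and only 29 peaks of that list were longer; in replicate 3 its widest peak was 6552 bp, with 18 longer. A neighbouring flank region, chr2:241846341-241848348, had folds of 5.89, 5.96 and 7.03, with summits within 149 bp of each other.

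LAG3, a second receptor of that kind, had folds of 2.57, 4.32 and 4.30, or 3.73 ± 1.01 (SD, n = 3, mean percentile 58.6). The low value came from replicate 1, where the peak stood at the 6.82 percentile of its list. CTLA4 and TIGIT had no peak within 5 kb in any replicate.

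Among the T cell surface genes 3 of 5 had gene-end peaks in all replicates. CD7, an immunoglobulin-family surface protein, had folds of 3.70, 4.41 and 5.40, or 4.50 ± 0.86 (SD, n = 3, mean percentile 84.2), and peaks covered 17.5%, 53.6% and 25.5% of its window. Replicate 2 covered most, chiefly with a peak of 4233 bp at the gene. A flank peak of 8328 bp in that replicate lay mostly outside the window. CD27, a costimulatory receptor, had folds of 3.22, 3.63 and 5.99, or 4.28 ± 1.49 (SD, n = 3, mean percentile 66.3). Its peak lay at the stop of the gene and touched the end of TAPBPL in every replicate, so it cannot be assigned to CD27 alone. CD5, an inhibitor of T cell receptor signalling, had folds of 2.95, 5.03 and 4.02, or 4.00 ± 1.04 (SD, n = 3, mean percentile 62.9). Its gene-end peaks in the 3 replicates did not all overlap, but a body region, chr11:61102273-61104449, was shared with folds of 5.16, 4.83 and 4.14. CD2 and CD28 had no peak within 5 kb.

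Of the 7 T cell receptor and coreceptor genes, 1 had gene-end peaks in all replicates (14.3%, background 9.03%). In at least 2 replicates 3 of them did (42.9%, background 15.2%). CD4, the coreceptor of helper T cells, had folds of 3.21, 3.05 and 3.73, or 3.33 ± 0.36 (SD, n = 3, mean percentile 40.5), the lowest mean of the 20. CD247, the zeta chain, had folds of 4.80, 3.77 and 4.40 at the strongest peak of its window, at a different site in each replicate. It had shared peak regions in the body and a gene-end peak in 2 replicates. CD8A, a chain of the coreceptor of cytotoxic T cells, had peaks in the window in all 3 replicates, and CD8B had gene-end peaks in 2. The CD3 genes CD3D, CD3E and CD3G, which lie side by side, had no peak within 5 kb in any replicate.

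LCK, the kinase that phosphorylates the receptor chains, had a peak at its start in all replicates and none at its stop. Its folds were 2.82, 4.10 and 4.78, or 3.90 ± 0.99 (SD, n = 3, mean percentile 62.6), lowest in replicate 1. The summits lay 53 bp after, 31 bp before and 161 bp after the start, so that only the summit of replicate 2 fell within the 250 bases printed above. ZAP70, the kinase that binds the phosphorylated chains, had folds of 3.55, 4.65 and 4.57 at the strongest peak of its window. These peaks lay at a different site in each replicate. Within ZAP70, 3 body regions were shared by all replicates. Its gene-end peaks were limited to replicates 2 and 3.

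All 3 B cell genes with gene-end peaks in every replicate encode parts or regulators of the B cell receptor. CD79A, a signalling chain of that receptor, lies at chr19:41877279-41881372 and had folds of 6.39, 5.33 and 5.69, or 5.80 ± 0.54 (SD, n = 3, mean percentile 98.3). The highest value was in replicate 1, and the region chr19:41876333-41881663 spans the gene in the merged lists. CD22, an inhibitory coreceptor, had gene-end folds of 3.90, 4.45 and 6.05, or 4.80 ± 1.12 (SD, n = 3, mean percentile 88.3). The strongest of these lay at the start in replicate 1 and at the stop in replicates 2 and 3, where it also touched the end of FFAR1. The stop peaks belong to a region that runs on into the flank, chr19:35347262-35352774, whose strongest peaks had folds of 5.35, 7.56 and 8.47. CD79B, the partner chain of CD79A, had folds of 3.98, 4.98 and 3.33, or 4.10 ± 0.84 (SD, n = 3, mean percentile 69.1). BLK, a kinase of B cells, had its shared peaks in the body, with folds of 3.77, 5.12 and 5.83 at the strongest. That of replicate 2 lay in a neighbouring region to those of replicates 1 and 3. MS4A1, which encodes CD20, had no peak within 5 kb.

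**Figure D3:**
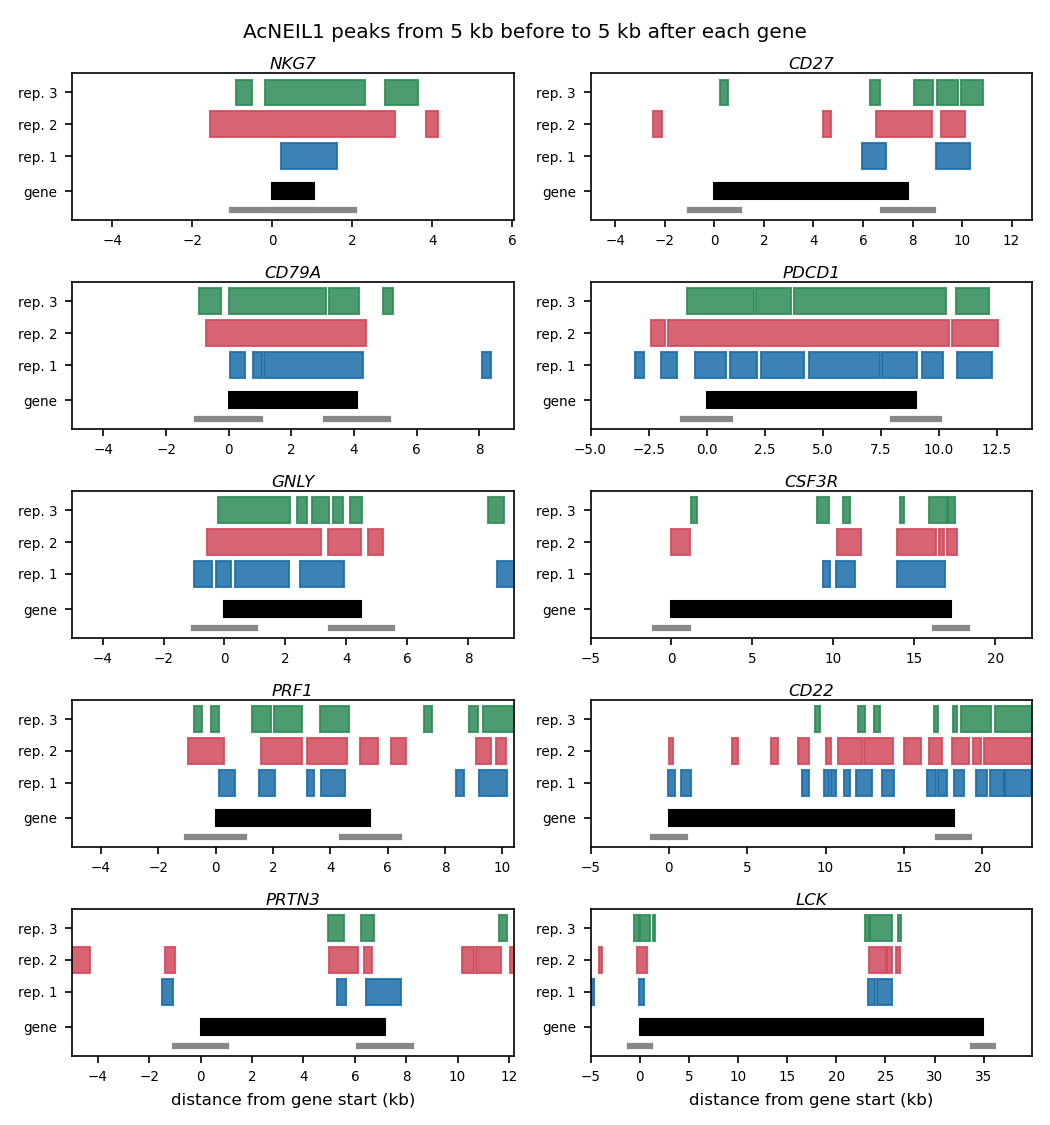
AcNEIL1 peaks of each replicate (coloured bars) around 10 members of known strand, against the distance from the gene start in kb; the black bar is the gene and the grey bars are the 1 kb end windows. PDCD1, GNLY, CD79A and NKG7 are covered almost from end to end in the merged lists, whereas LCK has its peaks at the start and within the body.

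Of the 7 myeloid granule genes, 2 had gene-end peaks in all replicates. MPO, which encodes the myeloperoxidase of neutrophil granules, had folds of 5.05, 4.39 and 4.67, or 4.70 ± 0.33 (SD, n = 3, mean percentile 92.1). PRTN3, which encodes proteinase 3, had folds of 3.45, 3.06 and 4.48, or 3.66 ± 0.74 (SD, n = 3, mean percentile 56.1). It lies between AZU1 and ELANE on chromosome 19, so the 3 genes' windows share peaks: the region chr19:847242-848785 is the stop of PRTN3 and the flank of ELANE, and the region chr19:834789-836705, between AZU1 and PRTN3, had summits within 24 bp of each other. AZU1 and ELANE had a peak in the window in all replicates without a gene-end peak in all. LYZ, the gene of lysozyme, had no peak within 5 kb, and S100A8 and S100A9, the calgranulin genes, each had one in a single replicate. The RefSeq body of S100A8 extends 31395 bp beyond the start used for its promoter, and its peak lay within that stretch.

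Among the 8 myeloid surface genes only CSF3R, the receptor of granulocyte colony-stimulating factor, had gene-end peaks in all replicates (12.5%, background 9.03%). Its folds were 5.64, 6.99 and 5.40, or 6.01 ± 0.86 (SD, n = 3, mean percentile 98.7), highest in replicate 2. These peaks reached into the stop of the gene, within the region chr1:36466317-36469377, and the start had a peak in replicate 2 alone. The summit of the strongest peak of replicate 2, chr1:36468097, lay in the body beyond the 1 kb end. With ends of 500 bp, or with the summit required at the end, the mean gene-end fold was 4.92. CSF1R, the receptor of the macrophage growth factor, had its strongest peaks away from the ends, at folds of 5.10, 3.92 and 4.37. The integrin ITGAX had 3.73, 5.43 and 4.44. For both genes the strongest peak lay at a different site in each replicate. CD14 and CD68 had a peak in 1 replicate, as did ITGAM, and CD33 and CD163 had none. SPI1, the transcription factor PU.1 of myeloid and B cells, had folds of 4.00, 3.90 and 3.96, or 3.95 ± 0.05 (SD, n = 3, mean percentile 74.2), the closest values of the 20 members.

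The interleukin IL27 and its neighbour APOBR, a receptor for apolipoprotein B, share 1 peak region, chr16:28493834-28499859. Its folds were 6.13, 6.28 and 9.0, or 7.14 ± 1.61 (SD, n = 3, mean percentile 99.5), highest in replicate 3, and it is counted for both genes. The summits of its strongest peaks lie within APOBR and outside IL27, and the mean gene-end fold of IL27 was 4.54 with ends of 500 bp and 3.72 with the summit required at the end. The 20 members with gene-end peaks in all replicates therefore lie at 19 loci. The shared integrin genes ITGB2 and ITGAL had body peaks in all 3 replicates, while PTPRC, which encodes CD45, had none within 5 kb.

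At 10 members (18.9%, background 19.2%) a peak lay in the window in all replicates without a gene-end peak in all: BLK, CSF1R, ITGAX, CD247, ITGB2, AZU1, ITGAL, ZAP70, ELANE and CD8A. That share was close to the background. Gene-end peaks in 2 replicates were seen at CD247, CD8B, ELANE, GZMM, ITGB2 and ZAP70, and for all 6 genes (11.3%, background 6.21%) these were replicates 2 and 3. The end peaks of AZU1, BLK, CD14, CD68, CSF1R, ITGAL and S100A9 were found in 1 replicate each (13.2%, background 10.2%).

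The positions of the peaks within the members' windows differed by place. Gene ends made up 12.7% of the members' windows and held 21.5% ± 3.53 (SD, n = 3) of their summits. The body made up 61.9% and held 59.3% ± 3.64, and the flanks made up 25.4% and held 19.2% ± 0.232. Summits were thus 18 ± 3.88 per 100 kb at ends, 10.2 ± 1.87 in bodies and 8.02 ± 1.42 in flanks. Over all genes the same densities were 5.30 ± 0.955, 2.25 ± 0.479 and 5.00 ± 0.973. Ends had the highest density in both, while bodies ranked above flanks in the members and below them in all genes. Since the members were listed for gene-end peaks, the density at ends is partly given by the choice.

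For 31 members the strand was known. A peak touched the start in all replicates at 6 of them (LCK, PRF1, CD79A, NKG7, GNLY and PDCD1; background 4.59%) and the stop at 9 (PRF1, CD79A, NKG7, GNLY, PDCD1, CSF3R, CD27, PRTN3 and CD22; background 4.24%). Both ends had a peak in all replicates at 5 (background 1.37%). Peaks at members were thus not confined to starts.

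Merging the peaks of the 3 lists in the windows gave 244 regions, counting once those that neighbouring members share. Of these, 128 (52.5%) came from 1 replicate, 63 (25.8%) from 2 and 53 (21.7%) from all 3. The median width was 375, 782 and 1709 bp. Regions found in more lists were wider, and merging adds to their width.

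The members' peaks also differed with the number of peaks around them. In the 500 kb on either side of the window, the 20 members with gene-end peaks in all replicates had a median of 82 peaks per replicate (40 to 166), and the 16 members with none had 13.7 (0 to 75.3). Protein-coding genes were split into 4 groups of like size by this measure, and from lowest to highest 0.431%, 2.77%, 11.5% and 21.3% had gene-end peaks in all replicates. For the members the counts were 0 of 7, 0 of 8, 8 of 18 (44.4%) and 12 of 20 (60%). In the upper groups the members stood above all genes of the same group, and in the lower groups no member had such peaks. Windows without a peak in any replicate made up 84%, 59.4%, 34.9% and 18.5% of all genes in these groups, and 7 of 7, 3 of 8, 5 of 18 and 1 of 20 members. The last of these was CD33.

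**Figure D4:**
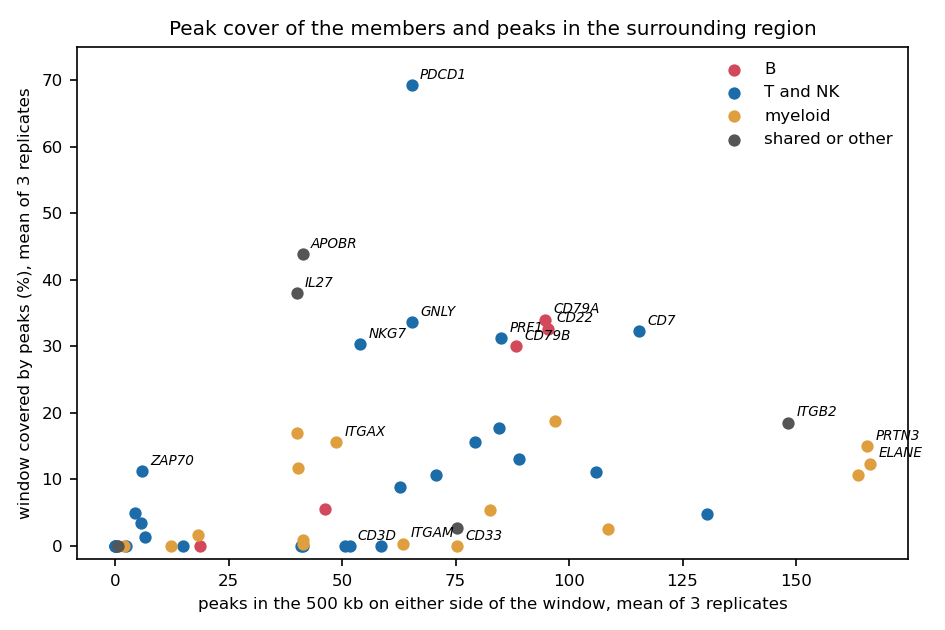
Percent of each member's window covered by peaks (y axis, mean of 3 replicates) against the mean number of peaks in the 500 kb on either side of the window (x axis); each point is 1 member, coloured by class. The 7 members with the fewest peaks around them lie at 0, but ZAP70, with a mean of 6 such peaks, lies at 11.3%. PDCD1 stands highest at 69.2%.

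Gene length differed as well. The 20 members with gene-end peaks in all replicates had a median length of 7325 bp, the 16 without peaks 11131 bp, all members 10818 bp and all genes 24505 bp. For genes under 10 kb, 13 of 25 members (52%, background 14%) had gene-end peaks in all replicates; from 10 to 30 kb it was 4 of 13 (30.8%, background 10.6%) and from 30 kb up 3 of 15 (20%, background 4.94%). The members were above the background in each length group. The part of length and of the peaks around a gene in the members' counts was not tested.

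Other leukocyte genes, listed by function, were closer to the background. Of 87 such genes, 10 (11.5%, background 9.03%) had gene-end peaks in all replicates, or 6 of 32 T and NK genes, 1 of 20 B genes and 3 of 35 myeloid genes. By replicate the counts were 14, 24 and 20, or 22.2% ± 5.79 (SD, n = 3), below the members' share in every replicate. Peaks covered 2.27% ± 1.10 of their windows, against 8.40% ± 3.08 for the members and 1.73% ± 0.71 for all genes. CEBPE, a factor of granulocyte maturation, had folds of 4.65, 5.52 and 4.57, or 4.91 ± 0.53 (SD, n = 3), highest in replicate 2. Among T and NK genes TCF7, IL2RB, RUNX3 and LAT had mean folds of 4.59 ± 1.48, 4.47 ± 0.78, 4.16 ± 0.36 and 4.08 ± 0.07 (SD, n = 3).

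Lists of other cell types, also made with earlier results known, gave different shares. Of 19 endothelial genes, 10 (52.6%, background 9.03%) had gene-end peaks in all replicates, or 63.2% ± 5.26 (SD, n = 3) by replicate. Of 20 colon epithelial genes, the cell type from which the line derives, 1 did (LGALS4), or 15.0% ± 5.00 by replicate. Over all genes the share by replicate was 16.6% ± 3.18. A peak in the window was present in all replicates at 8 of the 20 colon genes (40%, background 28.3%). Set side by side, the members' 37.7% lay below the endothelial share and above the colon epithelial share of 5.00%, in this single carcinoma line. No test of these differences was made.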

How the data were processed

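Each of the 3 AcNEIL1 ChIP libraries has a peak table by the authors, and the 3 inputs enter only as the caller's control. Peaks were called with MACS 2.1.1.20160309 in hg38 on each replicate alone, with a q cutoff of 0.05, at most 2 tags kept per position and the larger library scaled to the smaller, per the file headers. The submitters' processing notes name MACS2, Bowtie2, SAMtools, bedtools, cutadapt, FastQC and Trim Galore, with roles and versions not given in the sources used here. Signal in the deposited tables is the summit's pileup height, the deposited −log10 values are of the caller's p and q, and the deposited fold is the ratio of pileup to local background, used only to describe and rank peaks within a list. Inputs held 32877739, 37772127 and 33606858 tags after the filter. A gene without a peak is one at which none passed the cutoff at this depth.

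Gene positions came from a RefSeq table of GRCh38.p14 (58415 genes, 19817 of them protein-coding, on the chromosomes kept, 1 to 22 and X), and strand and promoters from a RefSeq promoter table, given for 31 members. Overlap was at least 1 bp. The members and the lists were chosen with earlier results of these data known, so no test was made. Named with values were all members with a gene-end peak in all replicates, then up to 8 of those with other peaks in all replicates, and up to 4 other leukocyte genes per class; 1 gene that this rule names is not reported here. Alternatives were other end windows and flanks, a stricter q, equal numbers of peaks per list, the summit in place of the peak, and leaving out each replicate. Scripts used Python 3.11.15, pandas 2.3.3, numpy 2.4.6 and matplotlib 3.10.9, and the counting was tested on simulated peaks.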

Additional observations from a re-analysis of the deposited data

How the results depend on the processing

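With −log10 q of at least 5 the count of members with gene-end peaks in all replicates was 11 in place of 20 (background 3.45%), and with the summit rather than any part of the peak at the end it was 12 (background 6.34%). The T and NK count of 11 became 5 with the stricter q, 6 with an end of 500 bp and 6 by summit, and the B count of 3 became 1 with the stricter q. The other counts stayed within 1.5 times their value under the alternatives run. With each replicate left out, the members' gene-end count ran from 20 to 26, the count with any peak from 30 to 32, T and NK from 11 to 15, B at 3, myeloid from 4 to 5 and members with no peak from 17 to 19. Leaving out 6 of the members of known fold was chosen after seeing the data. So was requiring the gene-end peaks of the 3 replicates to overlap each other, which gave 18 members (the background under it was 7.63%). Gene-end folds of the 20 members had no value in all replicates for 6 members with the 500 bp end and for 8 by summit. Of the other 14 and 12 folds, 3 and 4 moved by more than 1 SD. No paired analysis was possible because the inputs entered only as the caller's control and no result comes from a test. The lists give peaks only, so a level under the cutoff is not known.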
